A study of Mus musculus with 7 samples.

Results

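The genes described are the variable (V) segments of the immunoglobulin heavy chain (Ighv) and of the lambda light chain (Iglv) of the mouse. Counts came from 6 libraries of haematopoietic stem cells (HSCs), with control column 3 left out as described below. All genes whose symbol starts with Ighv or Iglv were taken if they had at least 1 count in any of these. Of 28786 genes in the deposited table, 110 are such segments, 107 Ighv and 3 Iglv. A count was present for 78 of them, 75 Ighv and all 3 Iglv. The presence of a count chose the members, so detection is given as a description and was not tested. At the edge of the rule, 4 members (Ighv3-8, Ighv1-24, Ighv1-31 and Ighv1-84) had no more than 1 count in any of these libraries, and 32 segments had none.

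The question of the study was the myeloid bias of HSCs under tumour growth. Bone marrow HSCs came from C57BL/6J mice with MC38 colon cancer, a mouse colon carcinoma line (4 libraries), and from normal control mice (3 columns, of which 2 are taken as independent). Per the labels' protocols, mice were 6 to 8 weeks old and 1500 sorted cells went into a low-input polyA RNA library. No other genotype or agent is named in the labels. No source used here states the sort gates, the sex of the mice, how long tumours grew, or whether each library is a mouse of its own. The p-values therefore measure spread among libraries that may be technical replicates. A difference between groups cannot be told apart from one between the mice or pools behind them.

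An immunoglobulin heavy chain is encoded after a V, a D and a J segment are joined in a developing B cell, and a light chain after a V and a J segment are joined. Each B cell or plasma cell clone thereby transcribes 1 rearranged V segment per productive chain at a high level, so V transcripts reflect which clones are present. Ighv segments fall into subfamilies by sequence, given by the number after Ighv in the symbol. In the mouse most light chains are kappa, and lambda chains use few V segments.

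The MC38 libraries held between 13368238 and 17657037 counts, and the controls held 12131546 and 12306066. Control column 3 followed the sum of control replicates 1 and 2 too closely to be an independent library and was left out unless named. Summed over the 10 HSC markers, transcript levels were 1327 to 1533 CPM (counts scaled to a common library size after TMM normalization) in MC38 libraries and 1334 and 1537 CPM in controls. The 10 B cell markers summed to 194 to 241 CPM in MC38 libraries and 157 and 159 CPM in controls. The 9 plasma cell markers summed to 499 to 725 CPM in MC38 libraries and 653 and 631 CPM in controls. Jchain gave most of this sum, with 268 to 461 CPM in MC38 libraries and 454 and 409 CPM in controls. In that list Sdc1, Xbp1 and Irf4 lay above both controls in every MC38 library, and the others overlapped. Of all genes tested below, 14.0% lay above both controls. The 8 T cell markers summed to 75.8 to 97.5 CPM in MC38 libraries and 37.6 and 47.0 CPM in controls, and the 7 neutrophil markers to 52220 to 59330 CPM and to 27290 and 27010 CPM. The 5 erythroid markers summed to 121 to 146 CPM in MC38 libraries and 183 and 137 CPM in controls. No marker of these lists was at 0 in all libraries. What part cells other than HSCs had in the segment counts was not tested, and in bulk samples fewer cells of a type and less RNA per cell cannot be told apart.

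The MC38 and control libraries used different heavy chain segments most. The 6 most used Ighv segments of MC38 libraries were Ighv1-26, Ighv11-2, Ighv7-1, Ighv1-77, Ighv1-9 and Ighv3-6, and those of the controls were Ighv1-39, Ighv1-50, Ighv1-64, Ighv1-72, Ighv5-16 and Ighv1-80. The sets had 0 segments in common at this cut of 6, but the lists below it did. Ighv1-9 ranked 5 in MC38 libraries and 7 in controls, and Ighv6-6 ranked 10 and 8. Ighv1-26 ranked 1 and 10 and Ighv11-2 ranked 2 and 9, while Ighv1-39 ranked 24 and 1. The MC38 set took 49.6% of Ighv counts in MC38 libraries and 17.7% in controls, while the control set took 10.6% in MC38 libraries and 48.5% in controls (means). These sets were picked by their use in each group, so the difference between the shares is a description.

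**Figure D1:**
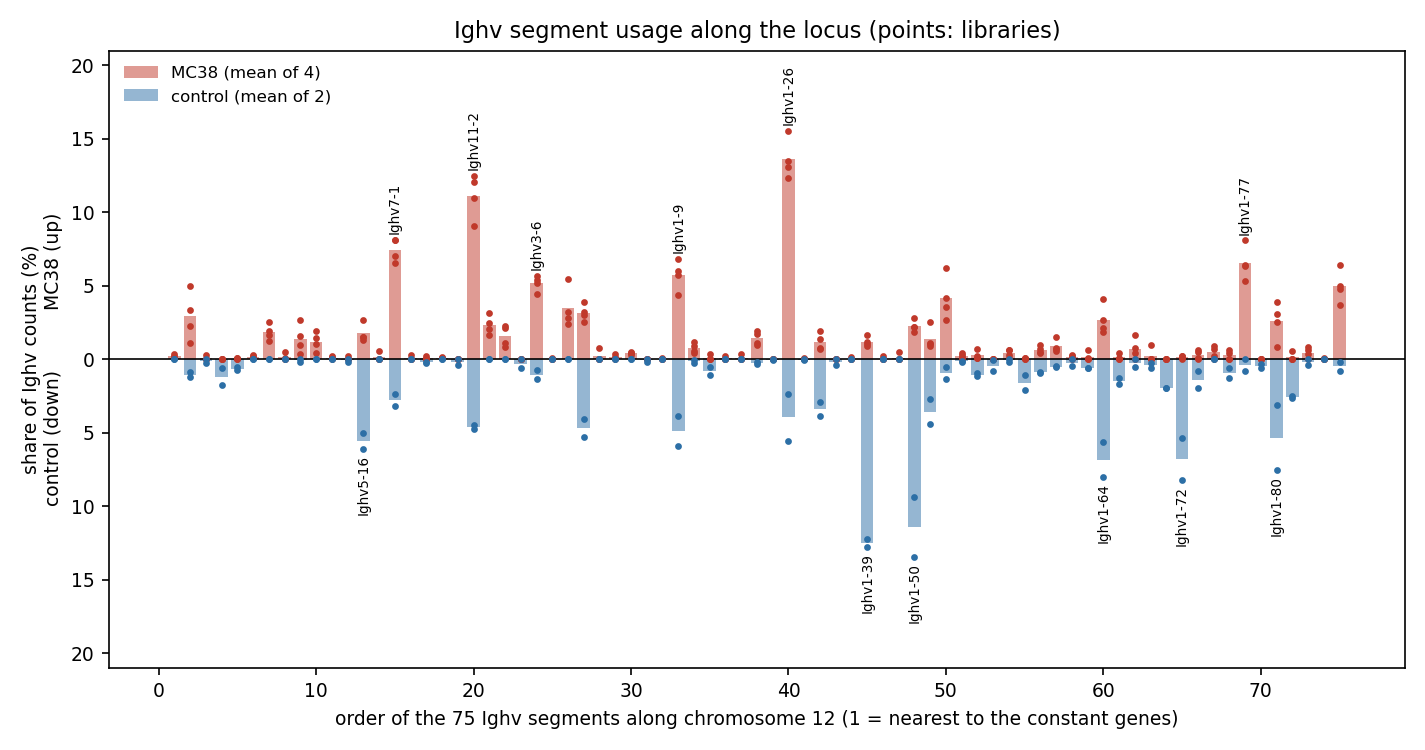
Share of all Ighv counts (%, vertical axis) taken by each of the 75 Ighv segments in their order on chromosome 12 (horizontal axis), with MC38 above the line and control below it; bars are group means and points are the 4 MC38 and 2 control libraries. Tall bars on one side, such as Ighv1-26 at 13.6% for MC38 and Ighv1-39 at 12.5% for control, mostly face short bars on the other.

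Among all 14226 genes tested between MC38 and control libraries (edgeR quasi-likelihood test, Benjamini-Hochberg adjusted p under 0.05), 1.04% were called higher and 0.569% lower, 1.61% in all. Of the 78 members, 40 passed the filter on low counts. Among these 40, 1 rose (Ighv6-3), 6 fell (Iglv1, Iglv2, Iglv3, Ighv1-39, Ighv1-50 and Ighv1-72) and 33 were not called, 18 of them with an unadjusted p under 0.05. Since 7 of the 40 had no count in 1 group and passed the filter through the other, these counts describe the tested members and support nothing further. The 38 members that were not tested held 2.59% of the members' counts, with at most 26 counts in a library. The median log2 fold change (MC38 over control) was -0.28 over the 40 tested members and 0.63 over the 37 Ighv members among them, also with members at 0 set at their bound, against 0.01 over all genes tested. The filter shaped these medians too. Ighv1-75, with 0, 4, 15 and 10 counts in MC38 libraries and none in controls, was tested. Ighv2-3, with 26 and 8 counts in controls and none in MC38 libraries, was not. The medians are therefore a description.

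The call count depended on single libraries. Without control replicate 1 no call remained and Ighv1-77 was called higher instead, while 0.397% of all genes tested were called. Without control replicate 2 the 4 calls left were Iglv1, Iglv2, Ighv1-39 and Ighv1-50, and without MC38 replicate 2 or MC38 replicate 4 they were Iglv1, Iglv2, Iglv3 and Ighv1-39. DESeq2 called 10 members higher and 9 lower, and 6.70% of all 15321 genes it tested.

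All 3 lambda V segments fell in MC38. Iglv1 (ENSMUSG00000076934, chromosome 16: 19085017 to 19085500, mm10, minus strand, leader and V exons) had 521, 579, 661 and 436 counts in MC38 libraries, against 1340 and 957 in controls. Every MC38 library was below both controls, although it held more counts in total. The level was 35.9 ± 3.08 CPM in MC38 and 95.8 ± 23.8 CPM in control libraries (SD, n = 4 and 2), 2.67-fold lower in MC38 (log2 fold change -1.42, SE 0.18, edgeR adjusted p = 0.00444). Iglv2 had 406, 424, 506 and 343 counts in MC38 libraries and 945 and 741 in controls (2.56-fold lower, edgeR adjusted p = 0.00444). Iglv3 had 64, 34, 46 and 37 counts in MC38 libraries and 223 and 202 in controls (5.93-fold lower, edgeR adjusted p = 0.00948). For all 3 the groups did not overlap, a separation also found in 29.0% of all genes tested. Without control replicate 1 the adjusted p in edgeR was 0.094 for Iglv1, 0.0971 for Iglv2 and 0.113 for Iglv3, and without control replicate 2 Iglv3 was not called either.

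Iglv1 and Iglv2 are close copies, differing at 12 of 366 aligned bases, and 77.8% and 76.0% of their 50-base windows occur in no other Ighv or Iglv segment. Reads from the rest of their length could be split between them or dropped. Iglv3 shares no window with the others. The sequences below show how close Iglv1 and Iglv2 are, with Iglv3 beside them. For Iglv1 and Iglv2 the 100 bases of the V exon that differ most between the 2 are given, with differing bases in capitals, and for Iglv3 the first 100 bases of its V exon with no capitals (GENCODE M21 transcripts, GRCm38, minus strand; chr16:19085222-19085321, chr16:19260606-19260705 and chr16:19241431-19241530).
Iglv1: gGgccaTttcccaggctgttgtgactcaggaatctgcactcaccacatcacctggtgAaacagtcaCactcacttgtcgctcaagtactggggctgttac
Iglv2: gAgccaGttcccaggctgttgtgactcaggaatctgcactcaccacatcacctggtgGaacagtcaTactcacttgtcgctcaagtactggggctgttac
Iglv3: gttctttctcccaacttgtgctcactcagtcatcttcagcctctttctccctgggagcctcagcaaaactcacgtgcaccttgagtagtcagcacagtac

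Together the lambda segments took 0.00662, 0.00714, 0.00687 and 0.00610% of all counts in the MC38 libraries and 0.0207 and 0.0154% in the controls. The 95% Wilson intervals, which cover counting error only, ran from 0.00672 to 0.00759% for the highest MC38 library and from 0.0148 to 0.0162% for the lower control, and did not meet. The group means were 0.00669 ± 0.00044% and 0.0181 ± 0.0037% (SD, n = 4 and 2), 2.70-fold lower in MC38 (exact permutation p = 0.0667 over 15 splits, the smallest these splits allow, two-sided as all tests here; 0.126 adjusted over the 17 measures of this kind). Lambda V segments were also set against the kappa V segments. They made up 3.61 ± 0.22% of light chain V counts in MC38 and 14.1 ± 0.40% in control libraries (exact permutation p = 0.0667). The kappa V segments themselves held 27974, 27021, 29958 and 22860 counts in MC38 libraries, which were deeper, and 14904 and 11832 in controls. This share therefore does not measure lambda counts alone. Within the lambda counts, Iglv3 took 6.46, 3.28, 3.79 and 4.53% in MC38 libraries and 8.89 and 10.6% in controls. Its share was thus lower in every MC38 library than in both controls (exact permutation p = 0.0667).

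The heavy chain V segments as a whole did not separate the groups. They held 1696, 1570, 1669 and 1404 counts in MC38 libraries and 1471 and 1322 in controls. Their share of all counts was 0.0105 ± 0.00079% in MC38 and 0.0114 ± 0.00098% in control libraries (SD, n = 4 and 2; exact permutation p = 0.4), and the groups overlapped. For every 100 counts of Ighm, the IgM constant region, the MC38 libraries had 4.52, 4.52, 4.67 and 4.92 Ighv counts and the controls 13.9 and 13.8. The ratio of counts was lower in all 4 MC38 libraries than in both controls (4.66 ± 0.19 and 13.8 ± 0.079, exact permutation p = 0.0667). It uses Ighm alone, which was itself 2.68-fold higher in MC38. Igha, the IgA constant region, had 12152 and 12310 counts in controls, where Ighm had 10583 and 9588, and was 3.05-fold lower in MC38. A ratio to all heavy chain constant regions was not taken.

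Below that total, single heavy chain segments differed. Ighv1-39 (ENSMUSG00000095130, chromosome 12: 114914599 to 114915032), the segment with the highest mean share in controls, had 20, 26, 17 and 13 counts in MC38 libraries and 188 and 162 in controls. It fell 11.5-fold (1.26 ± 0.39 CPM in MC38 and 14.6 ± 1.71 CPM in control libraries). The log2 fold change was -3.53 with an SE of 0.43 (edgeR adjusted p = 0.00376, or 0.0795 without control replicate 1). Ighv1-50 had 37, 29, 37 and 39 counts in MC38 libraries and 198 and 124 in controls, and fell 5.70-fold (edgeR adjusted p = 0.0161). Leaving out control replicate 1, or MC38 replicate 2, or MC38 replicate 4 ended its call, with an adjusted p of up to 0.204 in edgeR.

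Ighv1-72, the segment known in this strain for antibodies to the hapten NP, had 4, 1, 0 and 3 counts in MC38 libraries and 79 and 109 in controls. It fell 54.1-fold (0.14 ± 0.13 and 7.82 ± 1.67 CPM, edgeR adjusted p = 0.0186). The nearest segment, Ighv1-62-3, differs from it at 3 of 396 bases and had 12, 9, 25 and 11 counts in MC38 libraries and 7 and 7 in controls (edgeR adjusted p = 0.827). Only 7.49% of the 50-base windows of Ighv1-72 are its own, so its counts depend on how such reads were assigned.

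The single member that rose, Ighv6-3 (ENSMUSG00000076677, chromosome 12: 114391712 to 114392169), had 41, 51, 91 and 39 counts in MC38 libraries and none in either control. Against 3 counts over both controls it was at least 29.1-fold higher (3.55 ± 1.06 CPM in MC38, edgeR adjusted p = 0.0228). Its nearest relative, Ighv6-6, had 55, 40, 50 and 55 counts in MC38 libraries and 60 and 70 in controls (edgeR adjusted p = 0.506). The pair differs at 32 of 356 bases. Leaving out either control, MC38 replicate 2 or MC38 replicate 4, or testing with limma-voom, ended the calls of Ighv6-3 and of Ighv1-72, with an adjusted p of up to 0.129 and 0.132.

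**Figure D2:**
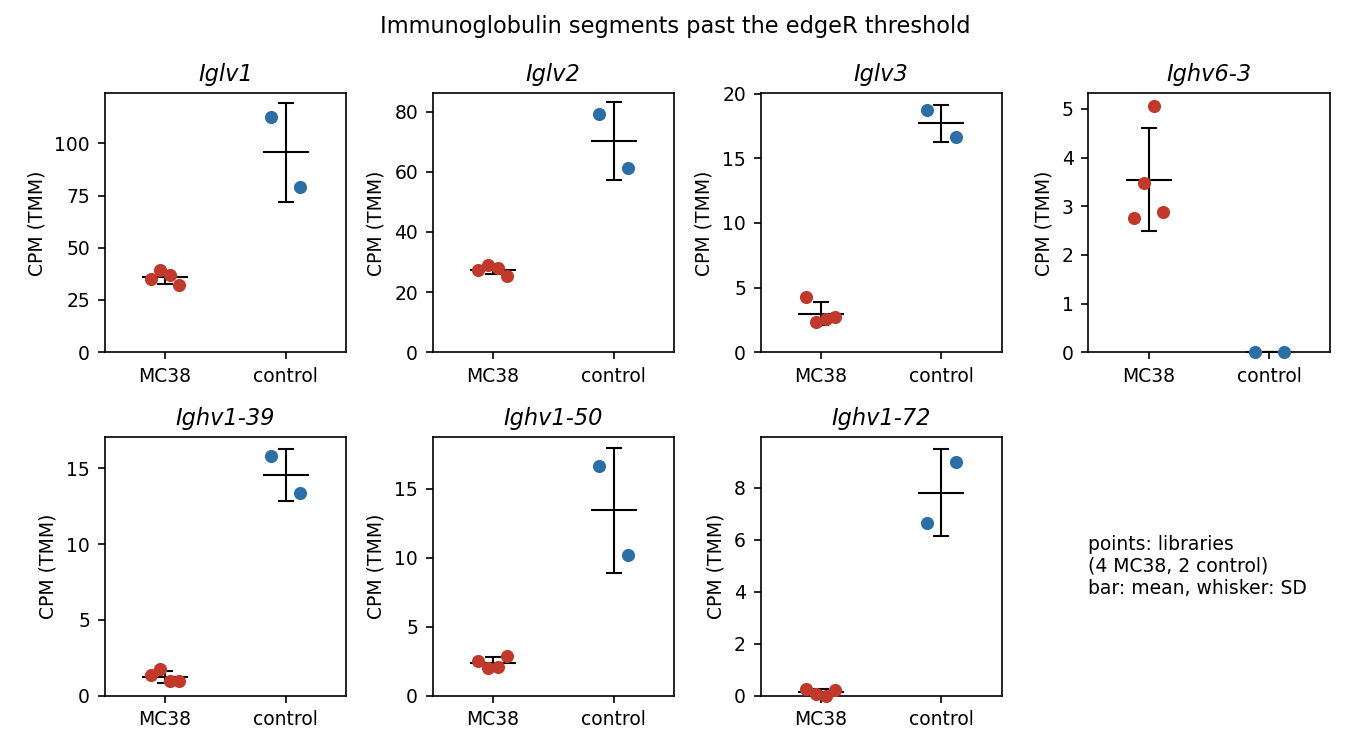
Levels of the 7 called segments in CPM (vertical axes, linear from 0) in MC38 (left in each panel) and control libraries (right); points are libraries, the bar is the mean and the whisker the SD. Ighv6-3 lies at 0 in both controls, and the other 6 segments lie below both controls in every MC38 library.

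The sequences of the called heavy chain segments show how far each can be told from its closest copy. Each is given with that copy over the 100 bases of the V exon in which they differ most, with differing bases in capitals (GENCODE M21 transcripts, GRCm38, minus strand). The stretches lie at chr12:114391828-114391927 and chr12:114434905-114435004, chr12:114914649-114914748 and chr12:114708698-114708797, chr12:115119840-115119939 and chr12:115623253-115623352, and chr12:115758189-115758288 and chr12:115461204-115461303. The pairs differ there at 14, 12, 6 and 2 bases, in this order.
Ighv6-3: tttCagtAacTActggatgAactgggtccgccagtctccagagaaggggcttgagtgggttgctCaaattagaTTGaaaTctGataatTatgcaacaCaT
Ighv6-6: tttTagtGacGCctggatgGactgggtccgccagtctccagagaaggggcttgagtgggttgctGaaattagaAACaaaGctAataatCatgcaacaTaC
Ighv1-39: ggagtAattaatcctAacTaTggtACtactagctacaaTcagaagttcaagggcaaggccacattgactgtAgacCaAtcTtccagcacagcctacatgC
Ighv1-19: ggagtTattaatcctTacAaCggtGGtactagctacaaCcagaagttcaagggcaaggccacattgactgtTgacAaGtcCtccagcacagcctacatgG
Ighv1-50: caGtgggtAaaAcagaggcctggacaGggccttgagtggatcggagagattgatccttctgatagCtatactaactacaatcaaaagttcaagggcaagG
Ighv1-69: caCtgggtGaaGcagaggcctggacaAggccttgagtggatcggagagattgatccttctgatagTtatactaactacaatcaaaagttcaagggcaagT
Ighv1-72: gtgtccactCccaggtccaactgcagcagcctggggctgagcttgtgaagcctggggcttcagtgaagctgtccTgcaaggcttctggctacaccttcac
Ighv1-62-3: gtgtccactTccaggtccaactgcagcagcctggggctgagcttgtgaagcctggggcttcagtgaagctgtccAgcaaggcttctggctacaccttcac

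Ighv1-19 had 0, 0, 4 and 0 counts in MC38 libraries and none in the controls, and Ighv1-69 had 28, 12, 0 and 6 in MC38 libraries and 0 and 7 in controls. Ighv1-19 thus had few counts in either group. Ighv1-69 was not small beside Ighv1-50 in MC38 replicate 1, where they had 28 and 37 counts. Whether reads were shared within these pairs was not tested. Over all 78 members, identity to the nearest annotated segment of the same chain had a median of 95.7%, and 12 members had under 50% of their 50-base windows to themselves. Of the 7 called members, 5 were above that limit, all but Ighv1-50 (47.8%) and Ighv1-72.

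The 6 segments most used in MC38 libraries were not called, although the counts of 5 of them were separated. Ighv1-26, the most used in all 4 MC38 libraries, had 264, 205, 225 and 173 counts there and 82 and 31 in controls, or 13.6 ± 1.39% and 3.96 ± 2.28% of Ighv counts (edgeR adjusted p = 0.107). Ighv11-2, a segment known from B-1 cells, had 154, 172, 208 and 169 counts in MC38 libraries and 66 and 63 in controls (11.1 ± 1.51% and 4.63 ± 0.20%, edgeR adjusted p = 0.127). Ighv7-1, of the S107 family known for antibodies to phosphorylcholine, had 138, 127, 109 and 99 counts in MC38 libraries and 35 and 42 in controls (edgeR adjusted p = 0.16). Ighv3-6 had 91, 89, 74 and 73 counts in MC38 libraries and 20 and 10 in controls (edgeR adjusted p = 0.111). Ighv1-77 had 108, 127, 107 and 75 counts in MC38 libraries and 12 and 0 in controls (edgeR adjusted p = 0.0984). For these 5 segments every MC38 library exceeded both controls, as in 14.0% of all genes tested. They were named for their high share in MC38 libraries, which favours this order, so the separation is a description. Ighv1-26, Ighv11-2, Ighv3-6 and Ighv1-77 were called by DESeq2.

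Ighv1-9 stood apart as a segment much used in both groups. It had 74, 107, 96 and 84 counts in MC38 libraries and 87 and 51 in controls, 5.73 ± 1.02% and 4.89 ± 1.45% of Ighv counts, and the groups overlapped (log2 fold change 0.05, edgeR adjusted p = 0.967). Of the remaining segments most used in controls, Ighv1-64 had 36, 29, 68 and 38 counts in MC38 libraries and 83 and 106 in controls (edgeR adjusted p = 0.146). Ighv5-16 had 26, 24, 22 and 38 counts in MC38 libraries and 74 and 81 in controls (edgeR adjusted p = 0.147). Ighv1-80 had 66, 48, 14 and 36 counts in MC38 libraries and 46 and 100 in controls, and overlapped (edgeR adjusted p = 0.441). Over the 37 tested Ighv segments, 16 lay above both controls in all 4 MC38 libraries, 14 lay below and 7 overlapped. Of all genes tested, 14.0% lay above and 15.0% below. Segments with no count in 1 group passed the filter through the other, so these counts are a description.

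A count was present in both groups for 45 members, in MC38 libraries only for 24 (30.8%) and in controls only for 9 (11.5%). Of all 21477 genes with a count, 13.7% had one in MC38 libraries only and 7.63% in controls only, and MC38 had 4 deeper libraries against 2 controls. Of the 24, 11 were seen in a single MC38 library, with 55 counts in all. All 6 libraries held 24 members, and these carried 15367 of the 17597 member counts. In all 4 MC38 libraries and neither control were 9 segments (Ighv5-2, Ighv2-4, Ighv2-5, Ighv5-9-1, Ighv3-1, Ighv9-3, Ighv7-3, Ighv6-3 and Ighv1-5), and beyond Ighv6-3 the highest were Ighv9-3 with 28, 32, 41 and 44 counts and Ighv2-5 with 43, 30, 28 and 17. Neither passed the test (edgeR adjusted p = 0.0516 and 0.0723). In both controls and no MC38 library were 4, namely Ighv1-71 with 29 and 26 counts in the controls, Ighv2-3 with 26 and 8, Ighv1-56 with 12 and 1, and Ighv1-78 with 5 and 8. Of Ighv1-71, 2.58% of the windows are its own, and it was not called (edgeR adjusted p = 0.0767). A count of 0 allows up to 3 counts, so none of these can be called absent. The highest of these segments were chosen for naming after their values were seen.

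By subfamily, MC38 libraries used less Ighv1 and more of several smaller subfamilies. Ighv1, the J558 group and the largest in the mouse, had 40 members and took 57.3, 54.8, 53.0 and 52.4% of Ighv counts in MC38 libraries and 77.6 and 75.4% in controls. All MC38 libraries were below both controls (54.4 ± 2.19% and 76.5 ± 1.57%, SD, n = 4 and 2). Ighv7 took 9.04 ± 1.45% in MC38 libraries and 2.78 ± 0.56% in controls, and Ighv2 took 6.42 ± 0.75% and 2.31 ± 0.48%. Ighv3 took 5.26 ± 0.55% in MC38 libraries and 1.06 ± 0.43% in controls, and Ighv6 took 6.84 ± 1.14% and 4.69 ± 0.86%. Ighv9, a single member, took 2.32 ± 0.63% in MC38 libraries and had no count in controls. Ighv11 likewise rests on its 1 member Ighv11-2. Ighv3 was almost all Ighv3-6, which took 5.17% in MC38 libraries and 1.06% in controls. Within Ighv6 the segments went both ways. Ighv6-3 took 3.47% in MC38 libraries and had no count in controls, while Ighv6-6 took 3.18% in MC38 libraries and 4.69% in controls. Ighv5 went with Ighv1 and took 3.61 ± 1.38% in MC38 libraries and 6.42 ± 1.19% in controls. This fall lay in Ighv5-16, which took 1.77% in MC38 libraries and 5.58% in controls. Ighv5-9-1 went the other way, with 1.20% in MC38 libraries and no count in controls.

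The groups did not overlap for 10 of the 13 subfamilies, a separation found in 29.0% of all genes tested, and shares that sum to 100% are not independent. The exact permutation p was 0.0667 for each subfamily named above except Ighv6 (0.133), and adjusted over the 13 subfamilies it was 0.108, or 0.173 for Ighv6. Since 15 splits allow no p below 0.0667, no subfamily could pass 0.05. Among members with at least 50% of windows to themselves, chosen after seeing the data, 8 subfamilies did not overlap. There the difference for Ighv2 was 2.06 percentage points (3.81 and 1.75%, exact permutation p = 0.267), against 4.11 over all members, and for Ighv6 it was 1.42, against 2.15 (exact permutation p = 0.333). The remaining subfamilies were small, each with at most 18 counts in a library. Ighv8 took 0.71 ± 0.38% in MC38 libraries and 0.80 ± 0.60% in controls, and Ighv14 took 0.080 ± 0.16% and 0.51 ± 0.14%. Ighv4 had 0, 3, 1 and 0 counts in MC38 libraries and 3 and 3 in controls, Ighv10 had 6, 1, 0 and 2 in MC38 libraries and 0 and 2 in controls, and Ighv15 had 0, 0, 2 and 0 in MC38 libraries and none in controls.

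**Figure D3:**
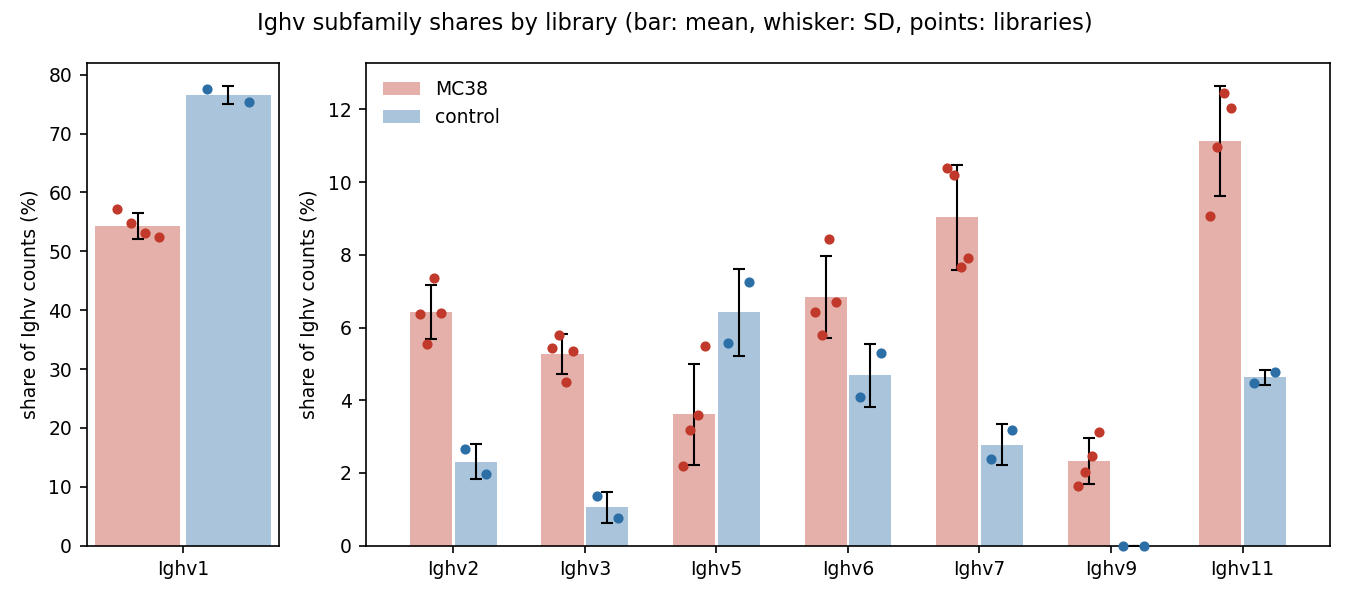
Share of all Ighv counts (%, vertical axes from 0) taken by the 8 subfamilies with a mean of at least 1% in either group, for MC38 (left bar) and control (right bar); bars are means, whiskers SD and points libraries. Ighv1, on its own axis, lies between 52.4 and 57.3% in MC38 and at 77.6 and 75.4% in control, and Ighv2, Ighv3, Ighv6, Ighv7, Ighv9 and Ighv11 lie higher in MC38.

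The 75 Ighv members span chromosome 12: 113578504 to 116000461, and 29 of them lie nearer to the constant genes than the first Ighv1 member, Ighv1-5. These 29 took 44.9 ± 2.43% of Ighv counts in MC38 libraries and 22.6 ± 2.06% in controls. All 29 are of other subfamilies than Ighv1, so this is nearly the remainder of the Ighv1 share and no separate result. Within Ighv1, tested segments went both ways, 7 above both controls in all MC38 libraries, 12 below and 5 overlapping. Among the 13 tested segments of other subfamilies 9 were above, 2 below and 2 overlapping. Of all genes tested, 14.0% lay above and 15.0% below. Ighv2-5, Ighv5-9-1, Ighv9-3, Ighv7-3 and Ighv6-3 had no count in controls and passed the filter through MC38 libraries alone. Ighv1-71 passed it through the controls alone. The split between Ighv1 and the other subfamilies is therefore a description.

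How evenly the heavy chain counts were spread did not differ between the groups beyond their spread. The effective number of segments (inverse Simpson index, the number of equally used segments that would give the same concentration) was 16.2, 16.7, 15.7 and 17.4 in MC38 libraries and 16.3 and 16.9 in controls. The means were 16.5 ± 0.74 and 16.6 ± 0.39 (SD, n = 4 and 2, exact permutation p = 0.8), and the sign of this difference turned when Ighv1-26 or single libraries were left out. At a common depth of 1322 Ighv counts, 42.8, 51.5, 45.6 and 45.9 segments were expected with a count in the MC38 libraries and 41.8 and 46.0 in the controls (exact permutation p = 0.467). The 5 most used segments of a library held 45.1 ± 1.76% of its Ighv counts in MC38 and 44.4 ± 1.48% in control libraries.

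Libraries of the same group shared most of their heavy chain usage. The overlap of 2 libraries was taken as the sum over segments of the smaller of their shares of Ighv counts. It was 76.2 to 85.5% over the 6 pairs of MC38 libraries, 80.0% for the pair of controls, and 35.0 to 44.6% over the 8 pairs of an MC38 library with a control. The highest value between groups was thus far below the lowest within a group. For kappa V segments the same measure was 93.1 to 96.6% within MC38, 92.3% within control and 37.9 to 38.6% between groups. Pairs share libraries, so these values were not tested.

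**Figure D4:**
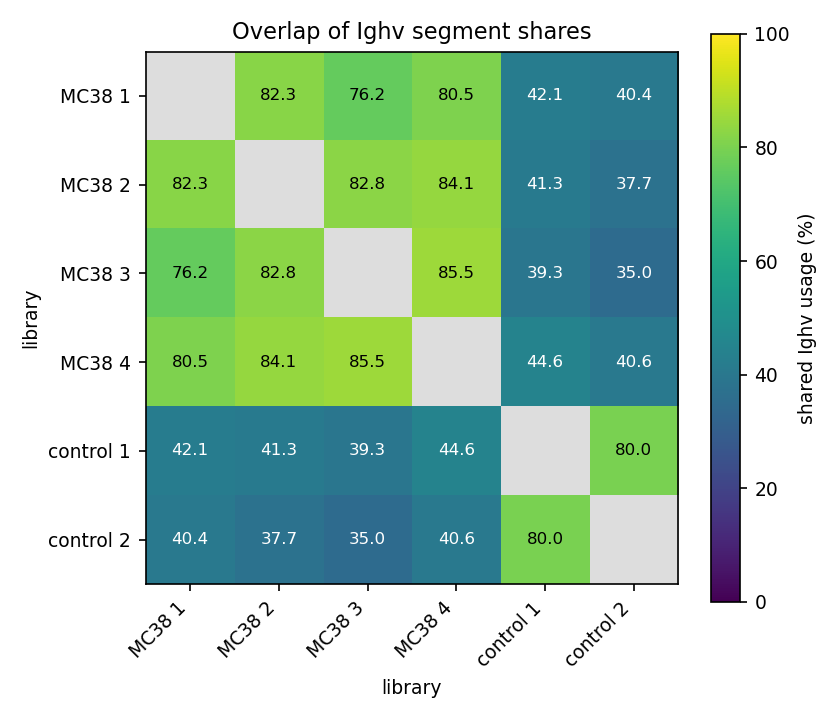
Overlap of Ighv usage (%, colour and printed values) for each pair of the 4 MC38 and 2 control libraries, both axes listing the libraries. Pairs within a group lie between 76.2 and 85.5%, and pairs of an MC38 library with a control between 35.0 and 44.6%.

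The heavy chain segments also agreed more closely between replicate libraries than other genes in the same range of counts did. For features with 10 to 400 counts in a pair of libraries, the chi-square per degree of freedom, which is 1 under pure counting error, was 2.95 to 9.47 for Ighv segments over the 7 pairs within a group. For 5500 to 6468 other genes it was 9.90 to 24.5 in the same pairs. Between groups the order was the other way, with 26.5 to 37.2 for Ighv segments and 11.9 to 24.7 for other genes. Ighv counts were scaled to the Ighv total and other genes to the library size. Within the range, counts of segments and of other genes were not matched, and the upper limit left Ighv1-26 out of some MC38 pairs. No pair of libraries agreed within counting error, which does not show that they came from separate cells or mice, and each was counted as 1 sample as labelled. Whether libraries of 1 group were split from shared cells or mice was not tested.

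Of 41 other genes of the B lineage and of antibody production, 34 were tested, 4 rose and 1 fell. Of all genes tested, 1.04% were called higher and 0.569% lower. The median log2 fold change of the 34 was 0.34, against 0.01 over all genes tested. The 5 called genes are constant regions. Ighm rose 2.68-fold (2248 ± 243 and 840 ± 69.1 CPM, edgeR adjusted p = 0.000744), Ighg2c rose 1.94-fold (edgeR adjusted p = 0.00453) and Igkc, the kappa constant region, rose 1.58-fold (edgeR adjusted p = 0.0428). Ighg1 had 909, 809, 703 and 625 counts in MC38 libraries and 0 and 3 in controls (edgeR adjusted p = 5.83e-05). Igha, the IgA constant region, fell 3.05-fold (334 ± 76.2 and 1019 ± 3.44 CPM, edgeR adjusted p = 0.00212). Without control replicate 1 only Ighm and Ighg1 of these 5 were still called, and without control replicate 2 Ighm, Ighg1 and Igha were. The call of Ighg1 ended with limma-voom (adjusted p = 0.104), and that of Igkc without MC38 replicate 2 or 4 as well (edgeR adjusted p = 0.139 and 0.0977). Ighm was called in all 13 alternatives tried.

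The B cell genes and the genes of V segment joining described next were not called. Ms4a1, which encodes CD20, averaged 8.23 ± 2.96 CPM in MC38 libraries and 6.34 ± 1.38 CPM in controls (edgeR adjusted p = 0.716). The B lineage factors Pax5 (edgeR adjusted p = 1.00) and Ebf1 (8.66 ± 3.93 and 3.56 ± 2.90 CPM, edgeR adjusted p = 0.335) were not called either. Rag1, a subunit of the recombinase that joins V segments, had 14, 43, 127 and 61 counts in MC38 libraries and 26 and 0 in controls (edgeR adjusted p = 0.521). Rag2, its partner, had 4, 0, 0 and 0 counts in MC38 libraries and 1 and 0 in controls and was not tested. Dntt, which adds bases at the joins, averaged 38.4 ± 2.28 CPM in MC38 libraries and 48.7 ± 3.02 CPM in controls (edgeR adjusted p = 0.313). Of plasma cell genes, Jchain, the joining chain of secreted IgM and IgA, was at 368 ± 89.9 CPM in MC38 and 432 ± 31.8 CPM in control libraries (edgeR adjusted p = 0.61). The plasma cell surface protein gene Sdc1 averaged 10.2 ± 3.17 CPM in MC38 libraries and 5.74 ± 0.63 CPM in controls (edgeR adjusted p = 0.328). Xbp1, a factor of secretory cells, averaged 173 ± 13.3 CPM in MC38 libraries and 146 ± 7.88 CPM in controls (edgeR adjusted p = 0.352).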

How the data were processed

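RNA was sequenced from 1500 sorted HSCs per library, after 12 cycles of PCR, per the labels' protocols. The submitters' processing notes name HTSeq 0.10.0, STAR 2.6.1 and Trim Galore 0.5.0, with the build mm10. For the strand setting, the annotation release and reads matching several segments, the settings were not stated. Deposited values are raw counts of reads per Ensembl gene, made by the authors and not normalized. Symbols, coordinates and sequences came from GENCODE M21 (GRCm38), which named 27728 of 28786 rows.

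Control column 3 equalled 0.354 times the sum of control replicates 1 and 2, with a robust SD of 0.0227 on the log2 scale over 9692 genes. The same comparison of MC38 replicate 1 with the sum of MC38 replicates 2 and 3 gave 0.464. Column 3 was therefore left out of the main tests. Genes were tested with edgeR 4.0.16 (R 4.3.3; TMM, filterByExpr, robust quasi-likelihood), with Benjamini-Hochberg adjustment over all genes tested and a threshold of 0.05. CPM values use TMM-scaled library sizes. DESeq2 1.42.0 and limma 3.58.1 were alternatives, with RLE scaling, no filter, all columns, library totals without immunoglobulin genes, a replicate block and leaving out each library. The edgeR fit was tested on simulated data.

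Single values per library were compared by exact permutation over 15 splits. Totals of 12131546 to 17657037 counts limit precision for members with few counts, and intervals cover counting error only, since PCR reads without molecular identifiers are not independent molecules. Named genes were all members past the threshold, the 6 most used Ighv segments per group, all Iglv members, and in the B lineage list the genes past the threshold and a set list, of which 1 gene is not reported here. Members, lists and tests were chosen with earlier results of these data known. The lambda share of light chain V counts, the ratios to constant regions, the share of the segments nearest the constant genes, the share of the 5 most used segments, the agreement per degree of freedom and the window measure were chosen after values were seen.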

Additional observations from a re-analysis of the deposited data

Results flagged for a closer look

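In 3 of the 55 groups of 4 MC38 values checked, 1 library stood far from the other 3, where chance gives about 1 in 20. The Ighv14 share of Ighv counts was 0.318% in MC38 replicate 2, from 5 counts, and 0 in the other MC38 libraries. The Ighv15 share was 0.120% in MC38 replicate 3, from 2 counts, and 0 in the other MC38 libraries. Rag2 was at 0.269 CPM in MC38 replicate 1, from 4 counts, and at 0 in the other MC38 libraries.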

How the results depend on the processing

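The count of members called was 7, and 12 with no filter on low counts, 22 with all 7 columns, 19 with DESeq2 and 1 to 9 when single libraries were left out. Of all genes tested, 1.61% were called, and 2.35% with no filter, 10.6% with all 7 columns, 6.70% with DESeq2 and 0.397 to 3.17% when single libraries were left out. The members' count was 7 with RLE scaling, 7 with library totals without immunoglobulin genes, 5 with limma-voom and, chosen after seeing the data, 5 among members with at least 50% of windows to themselves. The B lineage list gave 5 calls, and 8 with all 7 columns, 8 with DESeq2, 4 with limma-voom and 3 to 6 when single libraries were left out. With the replicate number as a block the counts were 9 and 8; same-numbered libraries had correlations of 0.073 and -0.052, so the numbers were not taken as pairs. Under this replicate block the log2 fold change was -0.017 for Ms4a1 and -0.57 for Pax5, opposite in sign to the main values. Leaving out single libraries turned signs for Ighv1-9 (-0.29 to 0.50) and Pax5 (-0.64 to 1.20), and for the shares of Ighv8 (-0.516 to 0.329 percentage points) and Ighv10 (-0.0113 to 0.140); the difference for Ighv15 ranged over 0 to 0.0399. The difference in effective number was -0.0706, and 2.07 without Ighv1-26, 0.204 with only members of at least 50% unique windows and -0.378 to 0.206 when single libraries were left out. With control column 3 included the difference in the lambda share was -0.0114 percentage points (exact permutation p = 0.0286). That column is not independent of the other controls, so this p is not a valid test. The same holds for the calls with all 7 columns. The causes were not tested. A fit restricted to segments annotated as functional equals the main one, as all members are so annotated. Depth limits the 38 members that were not tested.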

Other observations

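D and J segments of the heavy chain had few or no counts. All 16 D segments in the table were at 0 in these libraries. Of the J segments, Ighj1 had 10, 9, 3 and 4 counts in MC38 libraries and 13 and 6 in controls, and Ighj4 had 7, 7, 1 and 3 in MC38 libraries and 4 and 8 in controls. Lambda V counts per 100 counts of the constant region Iglc2 were 38.7 ± 3.75 in MC38 and 69.2 ± 7.84 in control libraries (SD, n = 4 and 2, exact permutation p = 0.0667, 0.126 adjusted over 17 measures). The lambda constant regions Iglc1 and Iglc3 were not found by symbol among the deposited genes. The ratio therefore does not set lambda V counts against all lambda constant regions.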
